A study of Arabidopsis thaliana with 4 samples.

Results

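AT1G76580 and AT1G76590 are neighbouring Arabidopsis genes for putative transcription factors, the first of the SBP-box type and the second of the PLATZ type. They were chosen as a pair because both lie next to each other on chromosome 1 and both had higher signals in plants that overexpress CBF2, so their difference between the groups is a description and carries no test. Each is represented by 1 probe set (259971_at and 259977_at), and the pair makes up 2 of the 13286 genes with a probe set of their own in the annotation, on an array of 22810 probe sets. Neither probe set has the suffix with which the array design marks probes shared between genes.

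RNA was measured on 4 Affymetrix ATH1 arrays, 1 per sample of whole seedlings. Wild type plants of the Ws-2 accession (n = 2 arrays) were compared with plants labelled 35S::CBF2 (n = 2), which express CBF2 under the 35S promoter, a viral promoter active in most plant tissues. Both groups had 4 days of stratification at 4 °C and then grew for 10 days at 24 °C in continuous light on plates. No cold treatment followed, so the comparison asks which transcripts differ when CBF2 is expressed in the warm. The labels describe plates of about 100 plants, do not name an accession for the transgenic plants, and give the transgenic samples the codes E24 and E2 in their titles but only E2 in their treatment text, so it is not settled whether these are 1 or 2 lines.

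CBF2 belongs to the AP2/ERF class of DNA-binding proteins and acts early in cold acclimation, where CBF factors bind the CRT/DRE element in promoters of cold-regulated genes. SBP-box proteins are plant-specific regulators with a zinc-binding DNA-binding domain, and members of the family act in the change from juvenile to adult growth, in flowering and in copper homeostasis. PLATZ proteins are also specific to plants; the founding member, from pea, binds A/T-rich DNA in a zinc-dependent way and represses transcription.

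The annotation used here names no probe set for CBF2 and leaves 8730 probe sets unlisted, so the transgene was not read directly. A pair of known CBF-induced genes checked the labels instead. Signals of COR15A, which encodes a chloroplast cold-protection protein, were 8987 and 8018 in 35S::CBF2 against 13.2 and 6.18 in wild type, and those of the dehydrin gene LTI30 were 4570 and 5124 against 43.4 and 50.2. Markers of both leaf and root were bright, as in whole plants: the lowest signals over the 4 arrays were 6774 for RCA (Rubisco activase) and 1429 for PYK10, a root-expressed beta-glucosidase. The root hair expansin gene EXPA7 was dimmer, at 31.3 to 41.7. The median signal of an array ranged from 39.6 to 42.4. Spike-in controls, bacterial and phage sequences added before hybridisation, were brighter on 35S::CBF2 replicate 2 (2.04 times the wild type mean over 9 probe sets) and dimmer on replicate 1 (0.611 times); their part in the results below was not tested.

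The SBP-box gene AT1G76580 was read as MAS5 signal, a linear brightness in arbitrary units. It gave 83.8 and 73.8 in the wild type samples and 258 and 253 in the transgenic ones. Both transgenic arrays were high, nearly alike, and clear of both wild type arrays. The geometric mean was 3.25-fold higher in 35S::CBF2, a log2 difference of 1.70 ± 0.19 (SE from limma, n = 2 arrays per group). Each transgenic array set against each wild type array gave folds from 3.02 to 3.50.

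The PLATZ gene AT1G76590 gave 45.8 and 55.8 in the wild type samples and 238 and 155 in the transgenic ones. Again both transgenic arrays lay above both wild type arrays, but here replicate 1 was clearly the brighter of the transgenic arrays. The geometric mean was 3.80-fold higher in 35S::CBF2, a log2 difference of 1.92 ± 0.25 (SE, n = 2 per group), with folds between single arrays from 2.77 to 5.19. Relative to the wild type mean, AT1G76590 stood at 4.70-fold on 35S::CBF2 replicate 1 and 3.06-fold on replicate 2. AT1G76580 stood at 3.28-fold and 3.21-fold on the same arrays. On replicate 2, the array with the bright spike-ins, the fold values of the pair were thus close together. On replicate 1, the array with the dim spike-ins, the fold value of the PLATZ gene was higher. With 2 arrays, the difference between the genes was not tested. In whole plants, a higher level per cell and a larger share of cells that express a gene cannot be told apart.

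**Figure D1:**
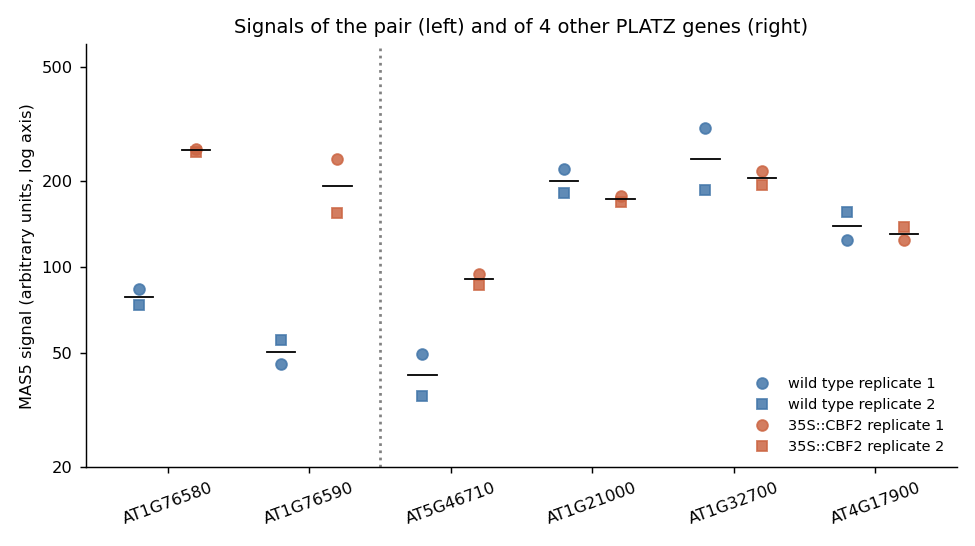
MAS5 signal (log axis, arbitrary units) of AT1G76580 and AT1G76590, left of the dotted line, and of 4 other tested PLATZ genes, right of it. Points are single arrays, wild type in blue and 35S::CBF2 in orange, and black bars are geometric means of 2 arrays; the pair and AT5G46710 have both orange points above both blue points, while the other PLATZ genes overlap with or lie slightly below their wild type level.

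The same contrast chose the pair, so its place among all probe sets is given only as a description. Over the array 458 of 13647 tested probe sets, or 3.36%, passed limma's test at an adjusted p under 0.05 (Benjamini-Hochberg), 288 higher in 35S::CBF2 (2.11%) and 170 lower (1.25%). The count fell to 270 (178 higher and 92 lower) when 35S::CBF2 replicate 2 was left out; without 35S::CBF2 replicate 1 the lower ones numbered 271, and without wild type replicate 1 they numbered 103. Of all tested probe sets 118 had a larger log2 difference than AT1G76580 and 89 a larger one than AT1G76590. Among the 288 higher ones, 113 and 87 exceeded the values of AT1G76580 and AT1G76590, where the median log2 difference was 1.46. Groups without overlap were common, at 41.7% of tested probe sets.

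Levels within each group are given as a description too, since the contrast that chose the pair includes them and a choice of large rises favours low wild type readings. In wild type AT1G76580 was brighter than 65.2% of all gene probe sets and AT1G76590 than 54.6%, so both were of middling brightness, and their lowest signals were 5.10 and 3.16 times the brightest of 27 probe sets for bacterial genes. Both genes thus lay above these controls on all 4 arrays. In 35S::CBF2 they were brighter than 88.5% and 84.4%. The 2 wild type arrays differed 1.14-fold for AT1G76580 and 1.22-fold for AT1G76590, against a median of 1.17-fold over tested probe sets. The 2 transgenic arrays differed 1.02-fold for AT1G76580 and 1.54-fold for AT1G76590, against a median of 1.18-fold; 88.9% of tested probe sets differed less between these arrays than AT1G76590 did.

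Other PLATZ genes were next compared, from a list of 11 drawn up from general knowledge of the family. Named probe sets covered 6 of them, and 4 passed the filter on low signal. AT5G46710 was higher in 35S::CBF2, and it was the 1 member of the 4 that passed the threshold, beside 3.36% of all tested probe sets passing in either direction and 2.11% higher; with 4 genes, nothing particular to the family can be read from this. The transgenic samples gave 94.7 and 86.5 and the wild type samples 49.6 and 35.5, without overlap. The rise was 2.16-fold, with a log2 difference of 1.11 ± 0.26 (SE, n = 2 per group; limma, adjusted p = 0.0413). This call was near the threshold: it was lost without wild type replicate 2 (log2 difference 0.87, adjusted p = 0.217), without 35S::CBF2 replicate 1 (adjusted p = 0.125) and without 35S::CBF2 replicate 2 (adjusted p = 0.130). It was also lost with no filter (0.120) and without the intensity trend (0.0826), and over 13 alternatives the adjusted p ranged from 0.0215 to 0.217.

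The other 3 tested PLATZ genes did not pass. AT1G21000 gave 177 and 168 in 35S::CBF2 against 220 and 181 in wild type (log2 difference -0.21 ± 0.19; limma, adjusted p = 0.757). The groups did not overlap, but by a small margin. AT1G32700 had log2 difference -0.22 ± 0.23 and AT4G17900 -0.09 ± 0.20 (adjusted p = 0.806 and 0.933). The median log2 difference of the 4 was -0.15, beside -0.04 over all tested probe sets. AT1G31040 and AT1G43000 were too dim to be tested, with signals of at most 18.0 on any array.

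The gene AT1G21000 has a further tie to the pair. In the gene table only 1 protein-coding gene separates it from SPL14 (AT1G20980), an SBP-box gene, so that an SBP-box gene and a PLATZ gene are found near each other at this place on chromosome 1 as well. The annotation names no probe set for SPL14, so only the PLATZ gene of this second arrangement was read. Its small difference kept its side of the threshold in 14 alternatives, with log2 values from -0.35 to -0.07 (adjusted p from 0.701 to 0.970). Whether it differs from AT1G76590 in its response was not tested, since AT1G76590 was chosen on this contrast.

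For the SBP-box family itself no comparison could be made: 0 of the 16 other SPL genes listed had a named probe set. The same held for the 4 listed genes of the salt overly sensitive pathway, which controls sodium export, and for all but 1 of 29 listed cold- and CBF-associated transcription factors. That one was STZ, a zinc finger repressor, with 41.2 and 79.5 in 35S::CBF2 against 23.3 and 39.0 in wild type. It did not pass (log2 difference 0.92 ± 0.38; limma, adjusted p = 0.310), and it passed in 0 of 13 alternatives.

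The surroundings of the pair were examined for a change over the wider region. In the TAIR10.1 gene table of RefSeq no protein-coding gene separates AT1G76580 from AT1G76590, and 1 long non-coding RNA gene, AT1G09633, lies between them. The 10 nearest genes with a named probe set on each side gave 13 tested neighbours and 7 that were too dim. Of the 13, 0 passed in either direction (limma, adjusted p from 0.193 to 0.990). Over the array 3.36% of tested probe sets passed, so with 13 genes nothing particular to the region can be read from this. An unadjusted p under 0.05 in limma was seen for 3 of the 13. The share of all tested probe sets at that level was not counted, so nothing about the region can be read from this number. Log2 differences of the 13 ran from -0.72 to 0.61 with a median of -0.20, 5 above and 8 below 0. The groups did not overlap in 5 of the 13, beside the 41.7% over the array.

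Of the 2 nearest measured genes on each side, 3 were tested and are among these 13. AT1G76600, the next protein-coding gene after AT1G76590, gave 60.6 and 61.6 in 35S::CBF2 against 78.0 and 130 in wild type (log2 difference -0.72 ± 0.27; limma, adjusted p = 0.245). The groups did not overlap, and most of the spread came from the wild type arrays. AT1G76620, beyond it, was below the filter, at 18.8 and 15.4 in 35S::CBF2 against 25.8 and 45.1. On the other side AT1G76550 gave 118 and 106 in 35S::CBF2 against 160 and 152 in wild type (log2 difference -0.47 ± 0.19, adjusted p = 0.300). Farther out, AT1G76510 had 59.4 and 63.0 in 35S::CBF2 against 56.5 and 71.1, so the transgenic values lay inside the wild type range. Between AT1G76550 and the pair lie 2 protein-coding genes without a named probe set, CP12-3 and AT1G76570, so the nearest gene on that side was not read.

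**Figure D2:**
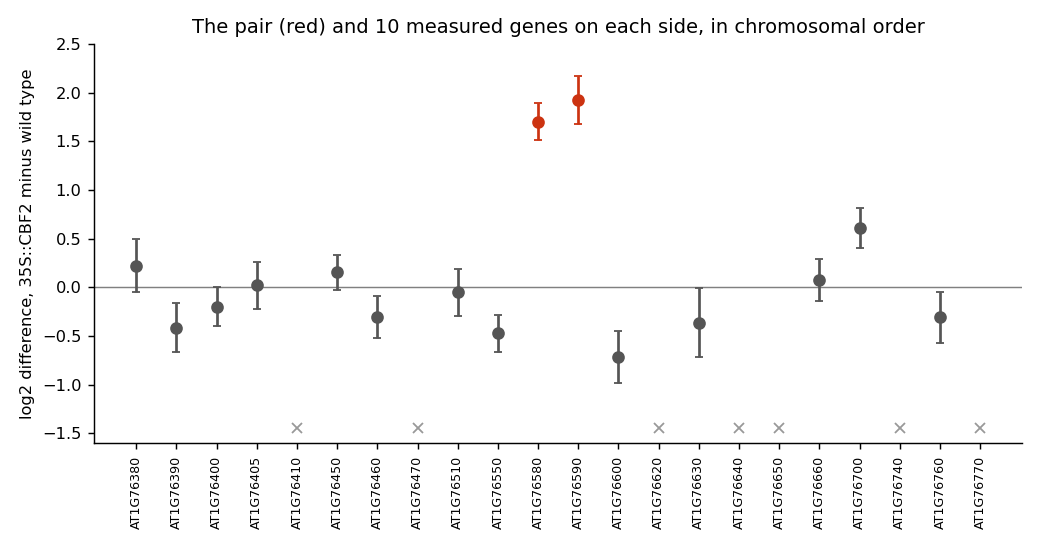
Log2 difference between 35S::CBF2 and wild type for the pair (red) and for the 10 nearest genes with a named probe set on each side (grey), in chromosomal order and not to distance. Bars are limma's SE (n = 2 arrays per group). Crosses mark genes below the filter and are all drawn at the same height, which is not their log2 difference. The tested neighbours lie between -0.72 and 0.61, below the pair at 1.70 and 1.92.

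Neighbouring genes that are both higher in 35S::CBF2 were counted over the genome. Among protein-coding genes next to each other in the gene table, 2100 pairs had both genes named and tested. These pairs hold 3610 genes, of which 67 were higher in 35S::CBF2 and 25 lower. Both genes were higher in 5 pairs, or 0.238%, and in 71 pairs 1 gene was higher and its partner was not. How the count of 5 pairs stands to the share of single genes that were higher was not tested. AT1G76580 and AT1G76590 are 1 of the 5 by the way they were chosen, so the count says nothing further about them. Both genes were lower in 0 pairs (limma). At an unadjusted p under 0.05 in limma, 17 pairs were lower in both genes and 18 higher in both. The share of single genes at that level was not counted, so nothing further is read from these numbers. The count of pairs was added after the data had been seen.

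The other 4 pairs are named here because they fell under that count, and their differences from AT1G76580 and AT1G76590 were not tested. The cold-protection genes COR15B and COR15A had log2 differences of 5.91 and 9.88. AT1G16840 and AT1G16850 stood at 1.49 and 9.35. The sugar transporter genes SWEET10 and SWEET13 stood at 3.97 and 1.87. In COR15A, AT1G16850 and SWEET10 both wild type arrays lay below the brightest bacterial control, so these values have no reliable size. Their wild type geometric means, 9.02, 1.83 and 9.35, also lay below the filter at 24.8. These genes passed the filter only through their signals in 35S::CBF2, so the pairs that hold them entered the count through that group. AT5G62350 and AT5G62360 stood at 1.54 and 1.95, beside 1.70 and 1.92 for the pair. The value of AT5G62360 rested on single arrays, with 1.25 without 35S::CBF2 replicate 1 and 2.66 without replicate 2. Its call was lost with no filter (adjusted p = 0.0896) and without the intensity trend (0.138; range 2.01e-05 to 0.138), and its signals were 902 and 339 on the transgenic arrays, brighter on replicate 1 as for AT1G76590.

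**Figure D3:**
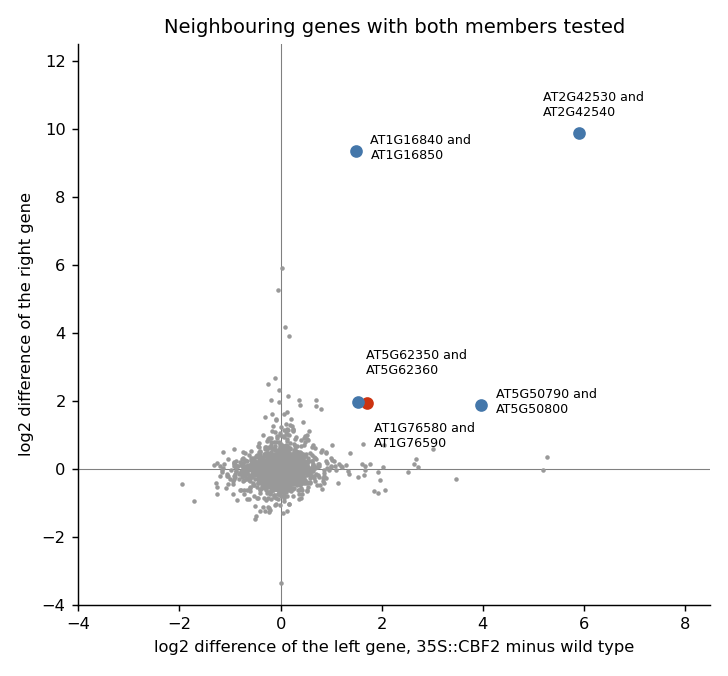
Log2 difference between 35S::CBF2 and wild type of 2 neighbouring protein-coding genes, the left gene on the horizontal and the right gene on the vertical axis, for 2100 pairs with both genes tested. Large points are the 5 pairs with both genes higher at an adjusted p under 0.05 (limma). AT1G76580 and AT1G76590, in red, are 1 of the 5 by the way they were chosen, so their place there is no test of them. Most other pairs lie near 0 on at least 1 axis.

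Which transcripts followed the pair most closely over the 4 arrays was read from log2 signals, each set against its own wild type mean. Likeness was the root mean square of the difference over the 4 arrays, where 0 means the same profile, over 7258 other tested probe sets with 1 gene. As the genes were chosen by this likeness, no test is given. The 5 closest to AT1G76580 were the glutamate receptor-like gene ATGLR1.2 (AT5G48400), AT3G53990, AT4G01140, AT1G79660 and AT1G16840, at 0.102 to 0.150. ATGLR1.2 gave 56.1 and 62.1 in 35S::CBF2 against 21.7 and 17.0 in wild type. AT4G01140 gave 20.3 and 14.49 in wild type. These wild type signals lay close to the brightest bacterial control, at 14.48, so the profiles of both genes are less certain. AT1G16840, at 503 and 507 against 187 and 173, is itself part of a neighbouring pair with both genes higher.

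The 5 closest to AT1G76590 were AT1G14580, AT3G45260, AT3G53990, AT3G54400 and AT5G27930, at 0.119 to 0.242. AT1G14580 gave 338 and 231 in 35S::CBF2 against 66.6 and 95.5 in wild type, brighter on transgenic replicate 1, like AT1G76590. AT3G54400 had the same order, with 1761 and 1155 in 35S::CBF2. AT3G53990 was among the 5 closest to both genes of the pair, with 1711 and 1673 in 35S::CBF2 against 455 and 482 in wild type.

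AT1G76580 and AT1G76590 were not each other's closest profile. They differed by 0.310, which placed AT1G76590 at rank 36 for AT1G76580 and AT1G76580 at rank 10 for AT1G76590. Most of this gap came from 35S::CBF2 replicate 1, where the values over wild type were 1.71 and 2.23 on the log2 scale. On replicate 2 they were 1.68 and 1.61.

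**Figure D4:**
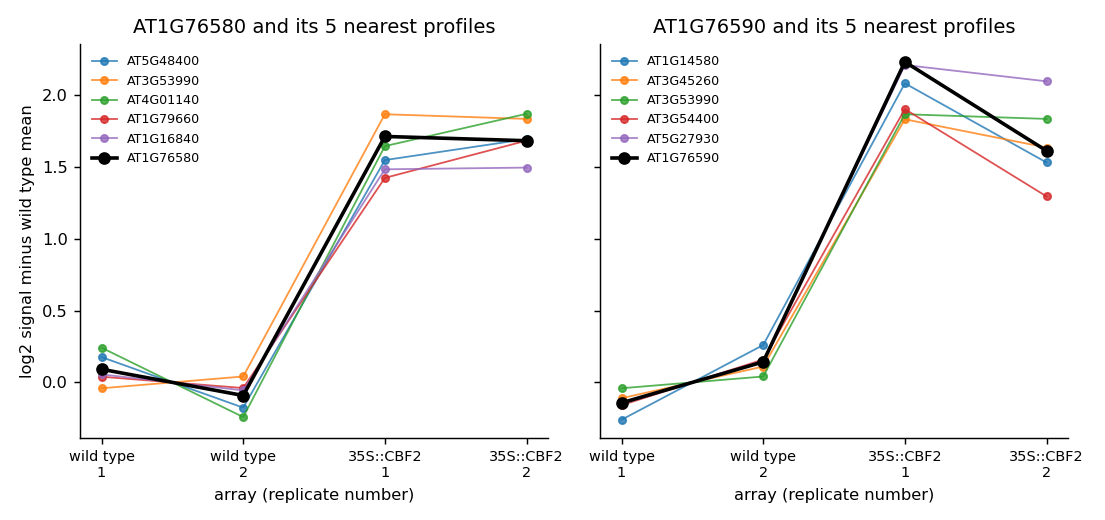
Log2 signal minus the wild type mean on each of the 4 arrays for AT1G76580 (left, black) and AT1G76590 (right, black), each with its 5 closest genes in colour. Lines join the arrays only to guide the eye; AT1G76580 is level over the transgenic arrays, at 1.71 and 1.68, while AT1G76590 goes from 2.23 on replicate 1 to 1.61 on replicate 2.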

How the data were processed

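The deposited values are signal intensity per probe set on a linear scale, which the authors made with MAS5 (version not given in the sources used here), as the submitters' processing notes record. The 2% trimmed mean was 100.0 on every array, so no scaling was added. Signals were taken to log2, and 13647 of 22746 gene probe sets with a mean log2 signal above the 40th percentile (geometric mean 24.8) were fitted with limma 3.58.1 in R 4.3.3 (eBayes with an intensity trend, two-sided). The procedure was tested on simulated data. Gene names came from a 2016 platform annotation, which lists 13513 probe sets with 1 gene, 503 with several and leaves 8730 unlisted, and from RefSeq (TAIR10.1; 13436 matched). Where a gene had several probe sets, the brightest was used. Separate cultures behind the arrays of 1 group are not stated in the labels, and the p-values reflect the spread of these samples alone, possibly technical spread, and 2 arrays per group limit the precision. The 35S::CBF2 arrays carry the same replicate number in the labels and were numbered in listed order.

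The pair and the gene lists were chosen with earlier results of these data known. Genes named are the pair, tested members of the PLATZ and transcription factor lists, the 2 nearest measured neighbours on each side, the 5 closest profiles and 2 known CBF-induced genes; neighbouring pairs elsewhere were added. A planned motif search was not run, since promoter sequences were not available here. Positions in the gene table served only to order the genes. No distances are given, since the array's build is not given. Alternatives were other normalizations, filters, variance models and thresholds, an offset or floor before the log, the letter in the sample titles as a block, and leaving out each array.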

Additional observations from a re-analysis of the deposited data

Results flagged for a closer look

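The hybridisation spike-in controls, which the comparisons did not use, were bright on 35S::CBF2 replicate 2, at 2.04 times their mean in wild type. This was above both wild type arrays (1.04 and 0.958 times). On 35S::CBF2 replicate 1 they were dim, at 0.611 times, below both wild type arrays. AT1G76580 had 253 on replicate 2 against 258 on replicate 1, and AT1G76590 had 155 against 238. The part of the spike-ins in these values was not tested.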

How the results depend on the processing

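Log2 differences of the pair ran from 1.56 to 1.79 for AT1G76580 and from 1.61 to 2.23 for AT1G76590 over 8 alternatives. Their direction is no sign of stability. The genes were chosen with higher signals in 35S::CBF2, and their groups do not overlap, which fixes the direction when an array is left out. The floor before the log lies below all their signals and left both values as they were. The value of AT1G76580 with an offset of 11.6 before the log was 1.56, which shrinks differences by construction. Changed probe sets (458) numbered 205 without the intensity trend and 270 to 605 with an array left out. Higher ones (288) numbered 157 without the trend and 178 to 334 with an array left out. Lower ones (170) ranged from 92 (without 35S::CBF2 replicate 2) to 271 (without replicate 1) with an array left out, and numbered 281 with the block on title letters, 48 without the trend, 96 with no filter and 259 at an adjusted p under 0.1. The changed PLATZ genes (1) numbered 0 with no filter, with the 60th percentile filter, which drops AT5G46710, and without the trend, and 0 to 1 with an array left out. Neighbouring pairs with both genes higher (5) numbered 3 with the 60th percentile filter, which tests fewer genes, and 5 to 7 with an array left out. Pairs with both lower (0) numbered 1 with the block and 0 to 2 with an array left out. Where no cause is named, the cause was not tested. Changed neighbours numbered 0 in all 14 alternatives. Single-gene comparisons covered STZ, the tested PLATZ genes of the list apart from AT1G21000, the tested neighbours, the other neighbouring pairs, COR15A and LTI30. Of these, 347 kept the call and 7 lost it (5 for AT5G46710, 2 for AT5G62360). The closest profiles, apart from AT1G16840, were not among them. Pairing by replicate number was not possible because the groups share only 1 such number in the labels. The block used instead was the title letter, which occurs as A and B in both groups. The labels do not give its meaning, and deviations of arrays with the same letter correlated at 0.07 across probe sets. The SPL and salt overly sensitive lists had no member with a named probe set, so no alternative gave a value.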
